A study of Mus musculus with 19 samples.

Results

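Magea5, Mageb2, Maged2, Magee2 and Mageh1 are 5 genes of the MAGE family, taken by symbol from a table of 14173 listed genes in single mouse blastocysts. They were selected on these same levels, as genes lower in Padi6-mutant than in Control embryos, so their difference between genotypes is given here as a description, without a test. The blastocyst holds an inner cell mass, the emerging primitive endoderm and an outer trophectoderm. Libraries of polyadenylated RNA, 1 per embryo, came from 9 Padi6-mutant and 10 Control embryos that had reached this stage. The Padi6-mutant embryos came from oocytes with the P620A change in Padi6, a protein of the subcortical maternal complex of the oocyte. The labels give no strain, age, litter or sex, and, beyond this change in the oocytes, no genotype of the parents of either group. Embryos were counted as separate replicates, so p-values may be too small where embryos share a litter.

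MAGE proteins share a conserved fold, the MAGE homology domain, through which many of them bind E3 ubiquitin ligases of the RING type. The type I genes, which in this set are Magea5 and Mageb2, are X-linked genes whose expression in adults is largely limited to the germ line, and in human tumours the counterparts of many are switched on when promoter DNA methylation is lost. The type II genes, here Maged2, Magee2 and Mageh1, are not tied to the germ line in this way. The RefSeq annotation places all 5 on the X chromosome.

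Promoter windows from RefSeq (build GRCm38.p6, older than the GRCm39 named for the reads) span 300 bases around the annotated start, and were found for 4 of the 5 members. They are shown because cytosine methylation in mammals falls mainly on CG dinucleotides, which are in capitals below, and all lie on the minus strand of the X chromosome (Magea5 at chrX:155061504-155061803, Maged2 at chrX:150814296-150814595, Magee2 at chrX:104857218-104857517, Mageh1 at chrX:153037514-153037813). For Maged2, which has 4 annotated starts, the first is printed.
Magea5: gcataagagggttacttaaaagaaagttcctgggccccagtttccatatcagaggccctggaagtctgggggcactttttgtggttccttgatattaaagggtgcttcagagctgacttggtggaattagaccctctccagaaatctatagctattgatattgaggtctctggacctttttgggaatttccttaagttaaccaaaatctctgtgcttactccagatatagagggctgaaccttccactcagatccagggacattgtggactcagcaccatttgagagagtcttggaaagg
Maged2: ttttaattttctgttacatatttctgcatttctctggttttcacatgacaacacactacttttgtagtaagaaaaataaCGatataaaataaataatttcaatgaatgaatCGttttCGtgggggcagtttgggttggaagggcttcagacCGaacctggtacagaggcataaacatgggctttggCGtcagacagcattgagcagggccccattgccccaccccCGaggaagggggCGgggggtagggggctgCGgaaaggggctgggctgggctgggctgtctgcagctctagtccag
Magee2: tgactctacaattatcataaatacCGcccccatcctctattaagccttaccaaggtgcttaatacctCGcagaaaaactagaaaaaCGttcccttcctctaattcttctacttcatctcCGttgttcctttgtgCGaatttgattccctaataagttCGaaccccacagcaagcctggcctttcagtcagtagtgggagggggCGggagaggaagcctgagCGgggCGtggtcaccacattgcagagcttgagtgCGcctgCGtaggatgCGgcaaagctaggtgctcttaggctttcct
Mageh1: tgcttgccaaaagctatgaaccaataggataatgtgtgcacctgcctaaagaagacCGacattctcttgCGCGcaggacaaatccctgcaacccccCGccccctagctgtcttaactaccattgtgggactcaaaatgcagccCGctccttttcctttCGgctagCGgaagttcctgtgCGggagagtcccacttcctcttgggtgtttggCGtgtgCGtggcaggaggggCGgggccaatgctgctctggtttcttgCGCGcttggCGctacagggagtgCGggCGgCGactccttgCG

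The Magea5 window held 0 CG dinucleotides, which was so for 0.606% of the 9575 listed genes with a window of the same length. The windows of Maged2, Magee2 and Mageh1 held 8, 12 and 18, against a median of 21 over the listed genes (quartiles 13 and 29). The other starts of Maged2 held 9, 19 and 19. The windows of 3 further MAGE genes of the table, Maged1, Nsmce3 and Mageb16, held 20, 25 and 6. The 4 windows thus ranged from none to a CG content somewhat below the middle of all promoters, and methylation itself was not measured in these files.

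Levels are log2(scaled count + 1), in which every library was scaled to the same upper quartile. Scaled totals were 40755000 to 53088000 in Padi6-mutant and 36253000 to 49241000 in Control libraries. The value of 1 original count could be told in 8 Padi6-mutant and 5 Control libraries, and the original totals in listed genes were then 12125000 to 30180000 in Padi6-mutant and 27886000 to 46192000 in Control libraries. The labels give a mean depth of 4200000 reads, so these totals are 2.89 to 11.0 times higher, and why was not resolved. Padi6-mutant libraries had 312 ± 191 listed genes at 0 (SD of 9 embryos), against 117 ± 76.2 in Control libraries (SD of 10; exact two-sided permutation p = 0.00692). Padi6-mutant 6, 8, 9 and 10, with 411 to 596 genes at 0, stood apart, and without them the difference did not pass (exact permutation p = 0.272). They were picked by that same number and this comparison was not planned, so a smaller difference follows from the choice. Padi6 itself, in which the mutation changes an amino acid so that its level is no check of the allele, was at 6.49 ± 2.16 in Padi6-mutant and 6.53 ± 1.5 in Control embryos. Markers of the inner cell mass (6 of 6), primitive endoderm (5 of 5) and trophectoderm (6 of 7) were listed, against 1 of 8 markers of cumulus and granulosa cells (Amhr2) and 0 of 7 of the oocyte.

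**Figure D1:**
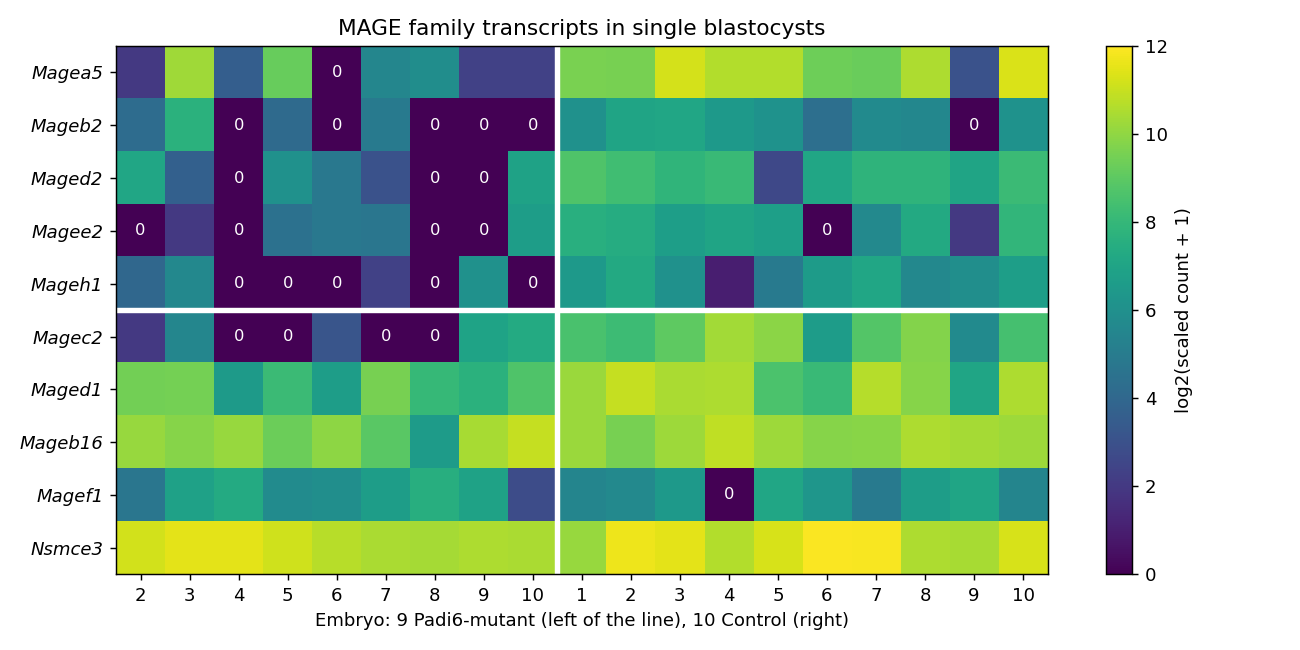
Level of 10 MAGE family genes in each embryo, as log2(scaled count + 1) from 0 (dark) to 12 (bright), with 9 Padi6-mutant embryos left of the vertical line and 10 Control embryos right of it; a printed 0 marks a value of exactly 0. The 5 members above the horizontal line were at 0 in 18 of 45 values in Padi6-mutant and 2 of 50 in Control embryos, and below the line Magec2 was at 0 in 4 Padi6-mutant and 0 Control embryos.

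Magea5, a type I gene of the MAGE-A cluster, was at 0 in Padi6-mutant 6 and above 0 in the other 8 mutant embryos and in all 10 Control embryos. Its level in Padi6-mutant embryos had a lowest value of 0, a median of 3.58 and a highest value of 10.29, against 3.00, 10.1 and 11.31 in Control embryos. Most mutant embryos were low, but Padi6-mutant 3 (10.29) lay among the Controls and Padi6-mutant 5 (9.21) just below 9 of them, while Control 9 (3.00) lay among the low mutants. In scaled counts the median was 11 in Padi6-mutant and 1121 in Control embryos. The log2 difference between the group means was -4.94 (SE 1.19), with means of 4.57 ± 3.45 for the 9 Padi6-mutant embryos against 9.50 ± 2.41 for the 10 Controls (± SD here and below).

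Mageb2, the other type I member, was at 0 in Padi6-mutant 4, 6, 8, 9 and 10 and in Control 9. It was expressed in Padi6-mutant 2, 3, 5 and 7 and in the other 9 Control embryos. The mutant median was 0 and the highest mutant value 7.67, against a median of 6.09 and a highest value of 7.10 in Control embryos. Padi6-mutant 3 therefore held the highest Mageb2 level of all 19 embryos, as it also held the highest Magea5 level among the mutants. The log2 difference was -3.11 (SE 1.10), and it shrank to -1.24 (SE 1.12) without Padi6-mutant 6, 8, 9 and 10 and to -0.68 (SE 1.06) in a fit that adjusted for the detected genes of each library. In human cells MAGEB2 restrains production of the stress granule protein G3BP.

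Among the type II members, Maged2 was at 0 in Padi6-mutant 4, 8 and 9 and in no Control embryo. Its mutant values had a lowest value of 0, a median of 3.70 and a highest value of 7.09, against 2.58, 7.83 and 8.68 in Control embryos. All 9 mutant embryos lay below the Control median, while Control 5 (2.58) was lower than 6 of them. The log2 difference was -3.84 (SE 1.00). In humans, loss of MAGED2 causes a transient form of antenatal Bartter syndrome, a disorder of salt reabsorption in the kidney.

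Magee2, which carries a pair of MAGE homology domains, was at 0 in Padi6-mutant 2, 4, 8 and 9 and in Control 6. Its mutant values reached from 0 over a median of 2.00 to 6.67 in Padi6-mutant 10, against 0, 6.89 and 7.90 in Control embryos. The groups overlapped through Control 6 and Control 9 (2.00), and otherwise only Padi6-mutant 10 lay above the lowest of the remaining Controls, Control 7 (5.67). The log2 difference was -3.33 (SE 1.14).

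Mageh1, a short protein made up largely of the MAGE homology domain, was at 0 in Padi6-mutant 4, 5, 6, 8 and 10 and in no Control embryo. Its mutant values had a median of 0 and a highest value of 6.07, against 6.26 and 7.27 in Control embryos, whose lowest value was 1.00 in Control 4. Padi6-mutant 9 (6.07) and Padi6-mutant 3 (5.61) were within the range of the other 9 Controls. The log2 difference was -3.77 (SE 0.99).

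**Figure D2:**
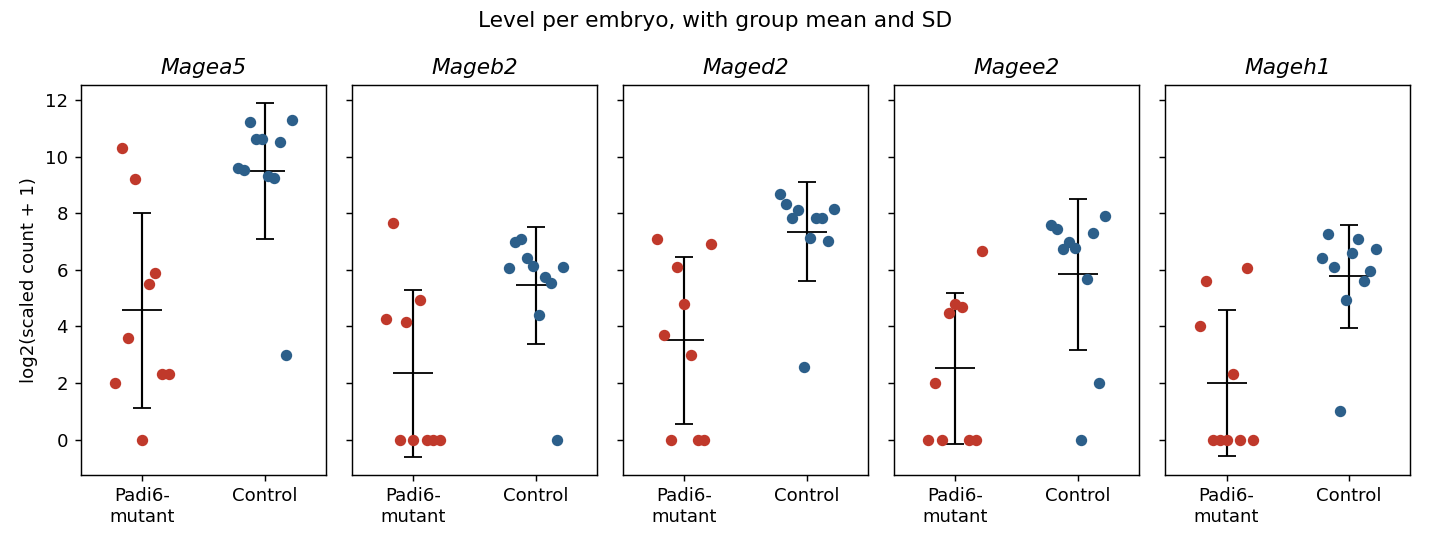
Level of each member per embryo, as log2(scaled count + 1), with 9 Padi6-mutant embryos (red, left) and 10 Control embryos (blue, right); the bar is the group mean and the whiskers 1 SD. For every member the mutant embryos spread from 0 to at least 6.07, and the groups overlap for each member.

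The 5 differences lay between -4.94 and -3.11, with a median of -3.77, against a median of -0.10 over all 14173 genes. Of all genes, 84 (0.593%) had a difference at or below that of Mageb2. All 5 are among the 1697 genes (12.0%) that were lower at a limma adjusted p under 0.05, a count that the choice of members fixes, while 2068 (14.6%) were higher. After adjustment for detected genes 499 genes were lower and 1308 higher. These differences depend on how zeros enter the log scale. With 10 in place of 1 added to each scaled count they were -4.02 for Magea5, -1.61 for Mageb2, -2.62 for Maged2, -2.09 for Magee2 and -2.04 for Mageh1. Without Padi6-mutant 6, 8, 9 and 10 the differences of Magea5, Maged2, Magee2 and Mageh1 were -3.39, -3.37, -3.61 and -3.38. After adjustment for detected genes they were -2.59 (SE 1.23) for Magea5, -3.55 (SE 1.26) for Maged2, -3.57 (SE 1.43) for Magee2 and -2.62 (SE 1.17) for Mageh1. Fewer cells expressing a gene and less RNA per cell cannot be told apart in whole embryos.

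Zeros of the members can be read against the zeros of each library. Of the 45 member values in Padi6-mutant embryos 18 (40%) were at 0, against 2 of 50 (4%) in Control embryos. Over all listed genes 2.20% of values were at 0 in Padi6-mutant and 0.826% in Control embryos. Over the 6061 genes whose Control median lay within the range of the members' Control medians the shares were 2.20% and 0.388%. That range ran from 67 scaled counts (Mageb2) to 1121 (Magea5), with Maged2 next highest at 227, so it does not match each member in level. The members were chosen as lower in mutants, so their share at 0 is a description. Mageb2, Maged2, Magee2 and Mageh1 were each at 0 in at least 3 Padi6-mutant and at most 1 Control embryo, as were 233 (1.64%) of all genes. That limit was set after the values were seen.

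The embryos differed in how many members were at 0. Padi6-mutant 4 had 4 members at 0 and the remaining one, Magea5, at 3.58, although only 203 listed genes were at 0 in that library. Padi6-mutant 8 had 4 at 0 with 462 genes at 0, Padi6-mutant 6 and 9 had 3 each with 596 and 411, and Padi6-mutant 10 had 2 with 551. Padi6-mutant 3 and 7 had 0 members at 0, with 164 and 143 genes at 0. Control 4 and Control 9, with 238 and 247 genes at 0, had 0 and 1 members at 0. In the 5 Padi6-mutant embryos with fewer than 400 genes at 0, 6 of 25 member values (24.0%) were at 0, against 1.12% of all values in those libraries. In Padi6-mutant 6, 8, 9 and 10, 12 of 20 (60.0%) were at 0, against 3.56% of all values, and the part of the libraries' own zeros in those of the members was not tested.

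**Figure D3:**
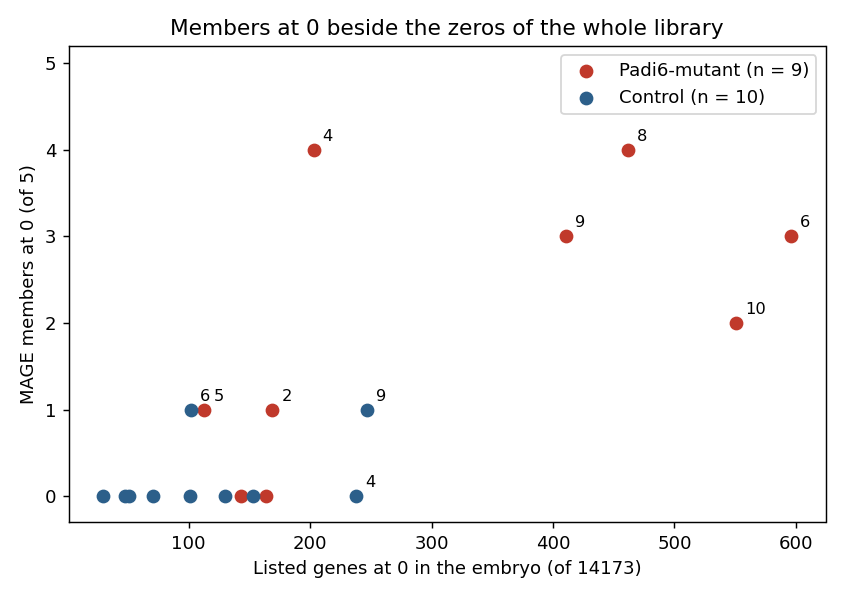
Number of the 5 members at 0 (vertical axis) against the number of listed genes at 0 (horizontal axis) in each of 9 Padi6-mutant (red) and 10 Control (blue) embryos; figures beside points are embryo numbers. Padi6-mutant 4 holds as many members at 0 as Padi6-mutant 8 with 203 against 462 genes at 0, and no Control embryo has more than 1.

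The zeros can also be set beside the steps in which each library's values move. Such a step is called an original count here, and since the totals exceed the stated depth, whether it stands for 1 read or read pair is not known. Among Padi6-mutant libraries, members were at 0 only in those in which the value of 1 original count could be told. The largest such value was 3.84 scaled counts, in Padi6-mutant 8. In that library the Control median of Mageb2, 67 scaled counts, equals 17.4 original counts, the lowest such figure for any member that was at 0 in a mutant. They cannot be read as molecules, since cDNA went through 17 cycles of PCR without molecular identifiers. Values just above 0 were a handful of original counts, such as 1 count of Magea5 in Padi6-mutant 2 and 1 of Magee2 in Padi6-mutant 3. With 10 scaled counts or fewer taken as low, 24 of 45 member values in Padi6-mutant and 6 of 50 in Control embryos were low.

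The zeros of the members overlapped in part. Mageb2, Maged2, Magee2 and Mageh1 were all at 0 in Padi6-mutant 4 and 8. Mageb2 and Mageh1, each at 0 in 5 mutants, shared 4 of them, and all 3 mutants with Maged2 at 0 also had Magee2 at 0. Other embryos differed between members. Padi6-mutant 10 lacked Mageb2 and Mageh1 but held Maged2 (6.92) and Magee2 (6.67) within the range of the Control embryos. For Maged2 that range reached below 7.01 (Control 9) only through Control 5 (2.58). Padi6-mutant 5 lacked only Mageh1, and Padi6-mutant 2 only Magee2. Magea5 and Mageb2 varied together, with a Pearson correlation of 0.78 over 19 embryos once each group's mean was taken off (0.70 over the Padi6-mutant embryos and 0.93 over the Controls, among which Control 9 was the lowest for both genes). For the other 9 pairs of members this value lay between -0.30 and 0.41. Over the Control embryos alone Magee2 correlated with Magea5 at 0.61 and with Mageb2 at 0.72, against -0.006 and 0.07 over the Padi6-mutant embryos. Nor was such a value limited to members. Over 19 embryos Maged1, another MAGE gene of the table, correlated with Mageb2 at 0.78 and with Magea5 at 0.54. With Magee2, Maged2 and Mageh1 it correlated at 0.50, 0.45 and 0.23.

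The genes most like each member, by the same correlation over 19 embryos, were spread over many chromosomes. They were sought among the listed genes, with unnamed gene models and Riken clones left out. For Magea5 they were Tgfbr3 (0.85), Gpr107 (0.81) and Ifngr1 (0.78). For Mageb2 they were Icam2 (0.80), Magea5 (0.78) and Arrb2 (0.78). For Maged2 they were Tnfrsf19 (0.86), Srebf2 (0.76) and Psd3 (0.76). For Magee2 they were Urb1 (0.82), Rcn2 (0.78) and Cask (0.78), and for Mageh1 Slc25a15 (0.82), Rab33b (0.76) and Thtpa (0.75). Cask is the only one of these besides Magea5 on the X chromosome. Each is among the highest over the genes searched, all from the same libraries, and is given as a description.

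Part of the Magea5 and Mageb2 signal cannot be assigned to 1 gene. Of all 75-base stretches of Magea5 transcripts in GENCODE M21, the read length of the study, 32.2% also occur in transcripts of Magea8, Magea2, Magea1, Magea3 or Magea6. For Mageb2 66.3% also occur in Mageb1 or Mageb3. None of these 7 genes is among those listed, and how reads with several matches were counted is not given in the sources used here. For Maged2 the share was 0.743%, with Tro, and for Magee2 and Mageh1 it was 0.

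Of the 5 other MAGE genes of the table, Magec2 and Maged1 fell and 0 rose (limma with Benjamini-Hochberg adjustment over 14173 genes). Over all genes 12.0% were called lower and 14.6% higher, 26.6% in either direction. These 5 are what remained after the members had been taken as lower on this same contrast. How mixed they are therefore follows in part from that choice. Magec2, whose human counterpart binds the E3 ligase TRIM28, was at 0 in Padi6-mutant 4, 5, 7 and 8 and in no Control embryo. Its mutant values had a median of 2.00 and a highest value of 7.32 in Padi6-mutant 10, against a lowest value of 5.73 in Control 9, a median of 8.67 and a highest value of 10.34 in Control embryos. Of the 9 mutants 7 lay below every Control embryo, and Padi6-mutant 9 (6.94) and 10 were the exceptions. The log2 difference of -5.77 (SE 0.99, limma adjusted p = 1.55e-04) was the lowest of all 14173 genes. It was -7.04 without Padi6-mutant 6, 8, 9 and 10 and -6.98 after adjustment for detected genes, and passed under every alternative in which the gene could be fitted. Its sequence was not compared with those of other genes.

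Maged1, an adaptor protein that binds the low-affinity neurotrophin receptor, was above 0 in every embryo. Its level was 8.25 ± 1.14 in the 9 Padi6-mutant embryos, against 9.69 ± 1.31 in the 10 Controls, a log2 difference of -1.45 (SE 0.51, limma adjusted p = 0.0391). All 9 mutants lay below the Control median of 10.3, but Control 9 (7.04), Control 6 (8.14) and Control 5 (8.61) overlapped them. Its call ended without any 1 of 12 embryos, namely Padi6-mutant 4, 5, 6, 8 or 9 or Control 1, 2, 3, 4, 7, 8 or 10 (highest adjusted p = 0.0803). It also ended when Padi6-mutant 6, 8, 9 and 10 were left out (-1.07, adjusted p = 0.239) and after adjustment for detected genes (-0.73, adjusted p = 0.456). Once each library's trend with transcript length and GC content had been taken off, it ended as well (-1.11, adjusted p = 0.112).

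The remaining MAGE genes did not pass. Nsmce3, the family's member in the Smc5 and Smc6 complex of chromosome maintenance, was at 10.9 ± 0.46 in Padi6-mutant and 11.1 ± 0.65 in Control embryos (difference -0.25, SE 0.25, limma adjusted p = 0.478). Mageb16, a type I gene, was at 9.59 ± 1.27 in Padi6-mutant and 10.2 ± 0.38 in Control embryos (difference -0.60, SE 0.38, limma adjusted p = 0.252), and 54.5% of its 75-base stretches also occur in its pseudogenes. Magef1, annotated in the mouse as a transcribed pseudogene, was at 6.07 ± 1.5 in Padi6-mutant and 5.51 ± 2.07 in Control embryos (difference 0.55, SE 0.79, limma adjusted p = 0.638). The type I genes thus ranged from Mageb16, above 0 in all 19 embryos, to Mageb2, at 0 in 5 of 9 mutants.

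**Figure D4:**
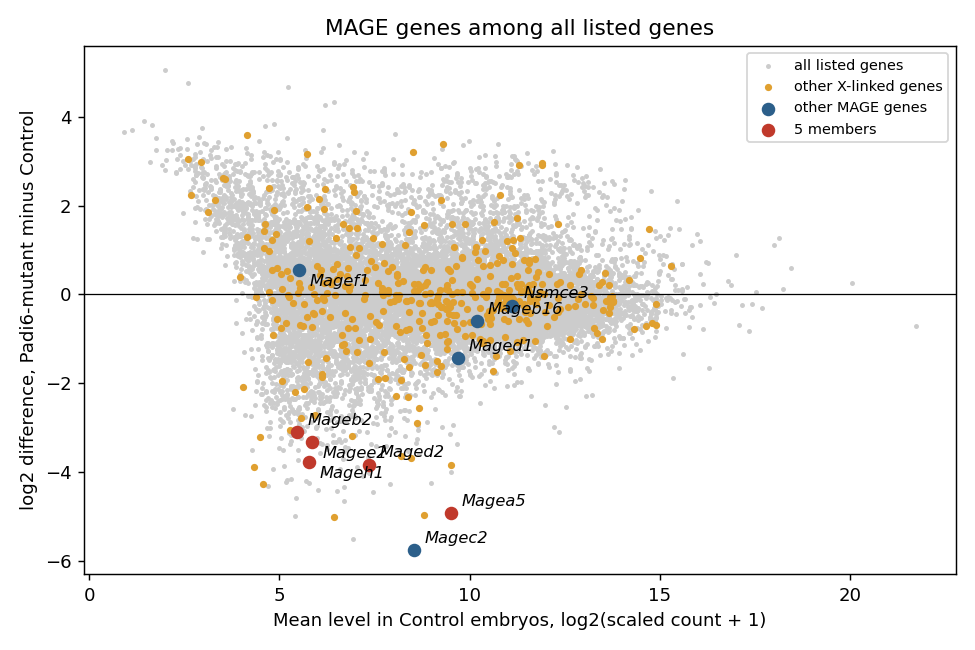
Log2 difference, Padi6-mutant minus Control (vertical axis), against the mean level in Control embryos (horizontal axis, log2(scaled count + 1)) for all 14173 listed genes (grey), with the 5 members in red, the 5 other MAGE genes in blue and other X-linked genes in orange. Magec2 (-5.77) and the members (-4.94 to -3.11) lie at the lower edge of the cloud, while the 412 X-linked genes that are not members have a median of -0.06.

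Partners of MAGE proteins were measured for 11 of 12 genes of a list, and 1 fell and 1 rose (18.2% called, against 26.6% of all genes). Trim28, the RING-type corepressor bound by several MAGE proteins, fell by 0.99 on the log2 scale (SE 0.24, limma adjusted p = 0.00320), with 13.1 ± 0.43 in Padi6-mutant and 14.0 ± 0.63 in Control embryos. That call ended when Padi6-mutant 6, 8, 9 and 10 were left out (-0.68, adjusted p = 0.0851), after adjustment for detected genes (-0.49, adjusted p = 0.175) and with the length and GC trend taken off (-0.48, adjusted p = 0.0714). Nsmce2, the SUMO ligase of the Smc5 and Smc6 complex, rose by 0.61 (SE 0.22, limma adjusted p = 0.0423), and its sign turned with the length and GC trend taken off (-0.22, adjusted p = 0.266). Without Padi6-mutant 2, 3, 4, 6 or 9 or Control 1, 2, 3, 4, 6 or 8 the Nsmce2 call ended (highest adjusted p = 0.0817). Usp7, the deubiquitinase that in human cells works with TRIM27 and the family member MAGEL2, was at 13.3 ± 0.21 in Padi6-mutant and 13.4 ± 0.27 in Control embryos (limma adjusted p = 0.785).

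X linkage was shared by all 5 members, so the other 412 X-linked genes were examined. Of these 53 rose and 50 fell, 25% in all, against 26.6% of all listed genes, and their median difference was -0.06. After adjustment for detected genes 35 rose and 15 fell, without Padi6-mutant 6, 8, 9 and 10 47 rose and 26 fell, and with the length and GC trend taken off 27 rose and 44 fell. A list of X-linked testis and germ cell families held 13 genes, all Xlr copies (Xlr3d-ps and Xlr4e-ps among them) except Tktl1 and Tex11. It therefore says little of other such families. Of the 13, 0 passed and 2 had an unadjusted p under 0.05, against 38.5% of all listed genes. Both are named after their values were seen. Xlr4a was at 8.87 ± 1.79 in Padi6-mutant and 7.0 ± 1.75 in Control embryos, and Xlr3b at 10.2 ± 1.49 in Padi6-mutant and 11.2 ± 0.57 in Control embryos (limma adjusted p = 0.0592 and 0.0793). In that list 1 gene passed as higher without Padi6-mutant 3 or Control 4, 5 or 10, and 1 as lower without Padi6-mutant 9. Without Padi6-mutant 8, 2 genes passed as higher. Among the nearest listed gene on each side of each member, 10 in all, 0 passed and 3 had an unadjusted p under 0.05, below the share over all genes. These are the nearest genes in the table, and 3 to 59 annotated genes that are not listed lie between them and the member. Their differences lay between -1.85 (Spin2c, with 30 genes between it and Magea5) and 0.62.

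Markers of cell types were compared between the genotypes in the same limma fit, and not with the members embryo by embryo. Over all genes 12.0% were lower and 14.6% higher. Inner cell mass markers (3 of 6 lower, 0 higher) had a summed level of 13.5 to 15.1 in Padi6-mutant and 14.5 to 15.8 in Control embryos, and primitive endoderm markers (4 of 5 lower, 0 higher) one of 13.1 to 13.8 in Padi6-mutant and 13.3 to 15.4 in Control embryos, on the log2 scale. Trophectoderm markers (0 of 6 changed by limma) summed to 16.7 to 18.9 in Padi6-mutant and 17.7 to 18.6 in Control embryos. Germ cell markers, of which 3 of 8 are listed (Ddx4, Sycp1 and Sycp3), summed to 11.4 to 12.8 in Padi6-mutant and 9.72 to 12.6 in Control embryos. Of these Sycp3, a protein of the meiotic chromosome axis, rose by 1.83 (limma adjusted p = 0.00133). Ddx4 (difference -0.41, limma adjusted p = 0.674) and Sycp1 (0.77, limma adjusted p = 0.368) did not pass. The part of any of these marker lists in the values of the members was not tested.

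The Y-linked helicase gene Ddx3y split the embryos of both genotypes, at 12.4 to 13.1 in 5 Padi6-mutant embryos (2, 4, 6, 9 and 10) and at 1.58 to 5.32 in 4 (3, 5, 7 and 8), against 12 to 13 in 6 Control embryos and 3.17 to 5.32 in 4. In Padi6-mutant embryos every Magea5 value beside a high Ddx3y value was at or below 3.58, and every one beside a low Ddx3y value was at or above 5.49. An order of this direction held for 156 genes (1.10%) of the table among the Padi6-mutant embryos. Among the Control embryos the order held for 44 genes (0.31%) and for no MAGE gene. Magea5 was there at 9.26 or above beside either Ddx3y level except in Control 9. Mageb2, Maged2, Magee2 and Mageh1 did not follow Ddx3y in this way. The order was noticed after the values were seen, the labels give no sex, and its part in the Magea5 difference was not tested.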

How the data were processed

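Single-blastocyst polyadenylated RNA was captured on oligo-dT beads, amplified after template switching and made into Nextera XT libraries, per the labels' protocols. The submitters' processing notes name Trim Galore 0.4.4, HISAT2 2.1.0 and the build GRCm39 (mm39); the counting tool and annotation are not given in the sources used here. The authors deposited log2 values of scaled counts plus 1 for 14173 genes, and the upper quartile is 2322 scaled counts in all 19 libraries. No listed gene was above 0 in fewer than 9 embryos, so genes silent in most embryos are outside the table.

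Genotypes were compared over all genes with limma 3.58.1 (R 4.3.3, lmFit, eBayes with trend, two-sided, Benjamini-Hochberg, threshold 0.05), with Python 3.11.15 for the rest. The limma fit was checked on simulated data with normal noise and no floor at 0. That check therefore does not cover genes with many values at 0, such as the members. The number of genes at 0 was compared by an exact permutation test over 92378 splits. Length and GC content came from GENCODE M21 for 13357 genes, and chromosomes from RefSeq (GRCm38.p6) by symbol. Prefixes of X-linked families also matched 5 genes not placed on X (such as Slx4), which were left out. The members and lists were chosen with earlier results of these data known. Other genes were named by a rule: all further MAGE genes, called partners and the 2 with the highest mean, up to 4 called genes of X-linked families, the 3 genes most like each member and the nearest listed neighbours. Alternatives were other scalings, a larger pseudocount, a level filter, a replicate block, detected genes as a covariate, quality weights, a length and GC correction, and libraries left out.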

Additional observations from a re-analysis of the deposited data

Results flagged for a closer look

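Of 28 groups of values examined, 6 held an embryo far from the rest of its group. The rule used flags about 1 in 20 by chance where values are normally distributed. Levels here have a floor at 0, so that rate may not hold. Control 9 was low for Magea5 (3.00, with a gap of 0.754 of the group's whole range to the next embryo) and for Mageb2 (0, gap 0.619). Control 5 was low for Maged2 (2.58, gap 0.727). Control 4 was low for Mageh1 (1.00, gap 0.631) and for Magef1 (0, gap 0.700). Padi6-mutant 8 was low for Mageb16 (6.60, gap 0.535). So 4 of the 5 members had a single low Control embryo, and it was not the same one for each. Without Control 9 the log2 difference, Padi6-mutant minus Control, of Magea5 was -5.66 and that of Mageb2 -3.72. Without Control 5 that of Maged2 was -4.37, and without Control 4 that of Mageh1 was -4.30.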

How the results depend on the processing

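The log2 differences of the members, Padi6-mutant minus Control, were below 0 under every alternative in which they could be fitted, though for Mageb2 -0.68 (SE 1.06) with the number of detected genes adjusted for and -1.24 (SE 1.12) without the 4 libraries were close to their errors. Leaving out 1 embryo at a time gave log2 differences of -5.66 to -4.37 (Magea5), -3.78 to -2.82 (Mageb2), -4.37 to -3.40 (Maged2), -3.98 to -3.01 (Magee2) and -4.30 to -3.52 (Mageh1). The share of mutant member values at 0 was then 35% to 45%, and the difference in genes at 0 was 160 to 220 (exact permutation p 0.00281 to 0.0159). That difference was 90.6 for genes at 10 scaled counts or fewer (exact permutation p = 0.344) and 41.3 without the 4 mutant libraries with over 400 genes at 0 (exact permutation p = 0.272). Those 4 were picked by this same number, so the smaller difference follows from the choice. Over all genes 3765 were called, 1807 after that adjustment (below, the covariate; 499 lower, 1308 higher), 2622 without the 4 libraries (941 lower, 1681 higher) and 3035 to 4288 without 1 embryo. Embryo numbers do not pair the samples (correlation of deviations -0.07 to 0.15 over 9 pairs, and 1 of 9 mutants correlated best with its own number), and with the replicate number as a block 2528 genes and 1 partner gene were called. Of the other MAGE genes 1 to 2 were called without 1 embryo, 1 without the 4 libraries, 1 with the covariate, 0 of 2 above the median level and 0 of 4 with the length and GC trend removed; neither of these last sets holds Magec2. Partner calls were 1 to 4 without 1 embryo, 4 with quantile normalization, above the median level or with quality weights, 0 without the 4 libraries or with the covariate, and 1 with the trend removed. X-linked calls were 82 to 114 without 1 embryo, 59 above the median level and 50 with the covariate. Calls in X-linked testis families were 0 to 2 without 1 embryo, all higher except 1 lower without Padi6-mutant 9. They were 1 (higher) without the 4 libraries, 2 (both higher) with quality weights and 2 (both lower) with the trend removed. Signs turned for Magef1 (-0.060 without Control 4; range without 1 embryo -0.060 to 0.96), Nsmce3 (0.038 without the 4 libraries, 0.13 with the covariate), Nsmce2 (-0.22 with the trend removed) and Usp7 (0.021 with weights, 0.046 with the trend removed). The cause was not tested.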

Other observations

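Beside the MAGE genes, 9 of the 412 other X-linked genes (2.18%) had a log2 difference at or below that of Mageb2, against 0.593% of all listed genes. Of the 9, 8 were called by limma, which a choice by so large a difference makes likely. They were chosen after their values were seen. They include Bhlhb9 (-4.96), Gprasp2 (-4.27) and Arxes2 (-5.02), with the DNA repair gene Radx (-3.89), the homeobox gene Hdx (-3.86), Nudt11 (-3.64), Capn6 (-3.69) and Cfap47 (-3.22), while Pcdh19 (-3.19, adjusted p = 0.0650) did not pass.

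Mageb16 went the other way from Magea5 beside Ddx3y: in Padi6-mutant embryos it was at 9.98 or above in the 5 with high Ddx3y and at 9.81 or below in the 4 with low Ddx3y. This order held for 100 listed genes (0.706%) among the Padi6-mutant embryos. Among the Control embryos it held for 44 (0.31%) and for no MAGE gene. It was noticed after the values were seen.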
